A study of Mus musculus with 60 samples.

Results

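Gene expression of mouse cerebral cortex at embryonic day 15 (E15) was compared with that of primary cortical cultures on day 3 in vitro (DIV3) that had received scrambled control siRNA (SC). The members are the 3 DIV3 SC libraries and the 2 E15 libraries, 5 of the 48 short-read libraries of the series, chosen by their labels. All 5 libraries are labelled as wild type, cerebral cortex and cortical neuron. The DIV3 SC cultures were grown in a serum-free neuronal medium, were given scrambled siRNA on day 2 in vitro and received no brain-derived neurotrophic factor (BDNF), a neurotrophin that some of the other cultures received at 20 ng/ml. No treatment is labelled for the E15 libraries. Per the study's methods, its mice had a C57BL/6J background. The labels' protocol places the embryos at E18, whereas the study describes the cultures as E15, and no source used here states whether the E15 RNA was taken from tissue or from freshly dissociated cells, or whether embryos were pooled. Age, dissociation, time in medium and siRNA all differ between the groups and cannot be told apart in this comparison. In bulk RNA, fewer cells of a type and less RNA per cell cannot be told apart either.

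At mid-corticogenesis, radial glia in the ventricular zone divide and give rise to intermediate progenitors, which express Eomes (Tbr2) and produce most glutamatergic neurons of the cortical plate. The cortex at this age is also invaded by blood vessels and covered by meninges, and Cajal-Retzius cells line its surface. Dissociation removes blood flow and tissue layering, and the medium favours neurons, which extend neurites and assemble the first synapses over the following days.

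Levels are given in TPM (transcripts per 1000000), a length-corrected share of all transcripts of a library. Differences are DIV3 SC minus E15 on the log2(TPM + 1) scale with a standard error (SE), tested with limma and adjusted over 13899 genes by the Benjamini-Hochberg method. The SE pools the spread within 13 groups of the series. For genes near 0 in the cultures, it and the p-value can understate the spread of the E15 libraries. A gene is said to have risen or fallen where its adjusted p was under 0.05. The files give no counts, so the depth behind each value is unknown.

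Before any result, 2 libraries stood apart. E15 replicate 2 was high in markers of tissues and regions beyond the cortex. The 7 choroid plexus markers summed to 0.849 TPM in E15 replicate 1 and to 590 TPM in replicate 2, against 1.06 to 1.61 TPM in the cultures, with Ttr, a carrier protein that marks the choroid plexus, at 0.0539 and 499 TPM. The 10 markers of ventral forebrain and striatum summed to 30.6 and 208 TPM and the 10 meningeal markers to 79.3 and 594 TPM in E15 replicates 1 and 2. Xist, the X-inactivation RNA, and the Y-linked Eif2s3y were at 0.0839 and 22.1 TPM in E15 replicate 1 and at 1036 and 0 TPM in replicate 2, while each DIV3 SC library held both transcripts. Across tested genes, the log2 levels of the E15 libraries correlated with r = 0.967, and those of the cultures with r between 0.976 and 0.994. Among the cultures, replicate 3 was lowest in glial transcripts: Gfap, the astrocyte intermediate filament, was at 398, 375 and 28.1 TPM in replicates 1, 2 and 3. Where a named call was lost without E15 replicate 2 or without DIV3 SC replicate 3, this is stated beside it or in the paragraph on all genes. Without E15 replicate 2, the remaining E15 library is assumed to vary like the other groups.

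Of the 13899 genes tested, 1501 differed (10.8%), with 738 higher (5.31%) and 763 lower (5.49%) in the cultures. An absolute difference of at least 1 was reached by 779 of them (5.6% of the genes tested), 374 higher (2.69%) and 405 lower (2.91%). Without E15 replicate 2, the count fell to 244 genes, 83 higher and 161 lower, of which 237 were among the 1501. Without DIV3 SC replicate 3, it was 678 genes. These fits tested the same 13899 genes, so Isl1 and Foxp2, among others, were tested without E15 replicate 2 only through its levels. A call was kept without each of the 5 libraries in turn by 210 of the 1501 genes, 57 higher and 153 lower. Among the genes named in the comparisons below these were Cldn5, Kdr, Cdh5, Pecam1, Tie1, Aplnr, Cd93, Clec14a, Slc38a5, Ctla2a, the 4 globins, Alas2, Kcnj8, Abcc9, Igf2, Isl1, Foxp2, Lhx5, Trp73, Eomes, Ankrd37, Col10a1, Mafa, Kcnk9, Shh, Hr, Shfl, Lncppara and mt-Rnr2, with Klf9, Mmp9 and Dlk1 of the closing observations, and each other call named was lost without at least 1 library. Without DIV3 SC replicate 3, calls lost outside the synaptic, channel and splicing lists were those of H19, Neurod1, Emx2, Tle4, Nfia and Cxcr4 (adjusted p = 0.143, 0.166, 0.125, 0.0819, 0.0557 and 0.206), of Vldlr, Dhcr7, Srebf2, Egln3, Tpi1 and Gapdh (0.091, 0.0666, 0.167, 0.125, 0.0688 and 0.118) and of Gm9839, H4c8, Txnip, Xist and Sema7a (0.0589, 0.0728, 0.0837, 0.0965 and 0.0572). The median difference over all genes was -0.02. The 15 largest falls with non-overlapping groups included endothelial genes and 4 globins, which the scatter of gene levels shows far below the line of equal level.

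**Figure D1:**
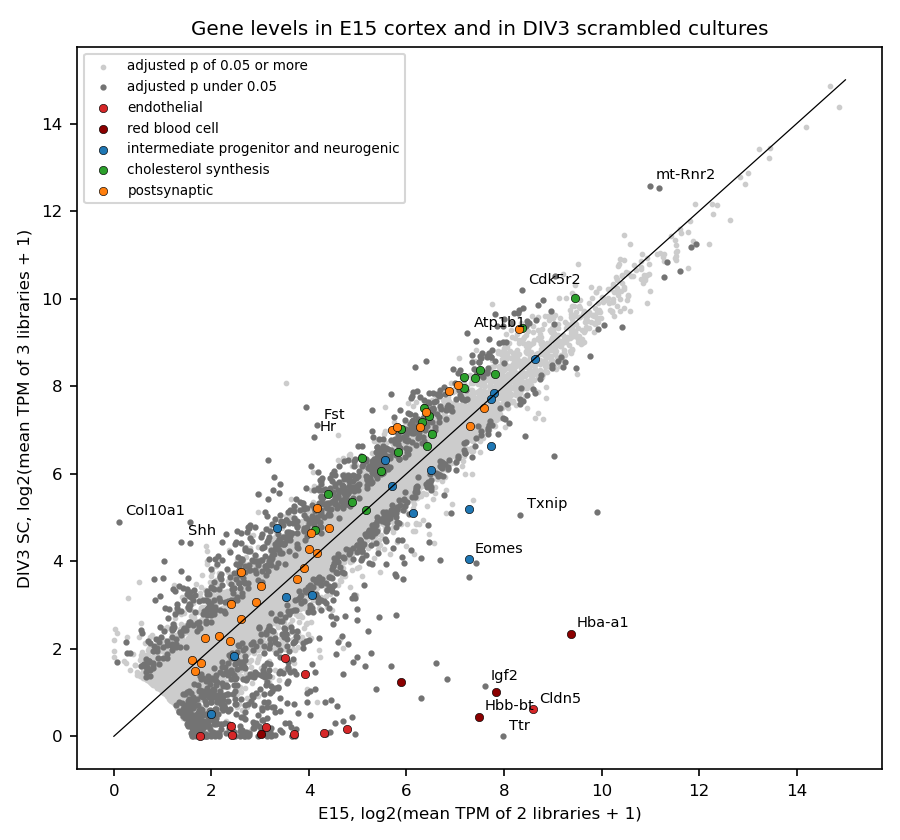
Mean level of each of 13899 genes in E15 (x axis, 2 libraries) and DIV3 SC (y axis, 3 libraries), as log2(mean TPM + 1), with the line of equal level; dark grey marks adjusted p under 0.05 and colours mark 5 gene lists. The endothelial and red blood cell genes lie far below the line, Eomes lies below it, and most cholesterol synthesis genes lie above it.

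Transcripts of endothelial cells, which line blood vessels, were almost absent from the cultures. Summed over the 12 markers, the E15 libraries held 455 and 515 TPM and the cultures 5.31, 4.84 and 5.85 TPM. The 10 markers that passed the filter on low values fell, but a gene near 0 in the cultures passed it only through its E15 level, so this count is a description and is not read against the 5.49% of all genes that fell. The same holds for the red blood cell and choroid plexus markers, and for some of the pericyte, Cajal-Retzius and ventral markers. Cldn5, the tight junction protein of brain endothelium, was at 385 and 381 TPM in the E15 libraries and at 0.395, 0.857 and 0.373 TPM in the DIV3 SC libraries (difference -7.98, SE 0.64, adjusted p = 1.45e-12). The groups were far apart, and without E15 replicate 2 the difference was also -7.98. Kdr, a receptor of vascular endothelial growth factor, was at 16.1 and 36.7 TPM at E15 and at 0.103, 0.163 and 0.0742 TPM in the cultures (-4.51, SE 0.19, adjusted p = 1.31e-21). Without E15 replicate 1 or 2 the difference was -5.08 or -3.94, so the E15 libraries were further apart than this SE shows. Cdh5, the endothelial cadherin, went from 9.22 and 28.7 TPM to at most 0.0848 TPM (-4.06, SE 0.19, adjusted p = 4.67e-20). Its difference was -4.82 or -3.29 without E15 replicate 1 or 2. Pecam1, an endothelial adhesion molecule, and Tie1, an endothelial receptor kinase, also fell (differences of -2.86 and -3.61). In the 12 other DIV3 libraries, which received Pxn siRNA, BDNF or both, the sum over the markers lay between 4.24 and 10.96 TPM. Without E15 replicate 2, 9 of the 10 tested genes passed.

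Several of the 15 largest falls outside the list are also vascular. Aplnr, the apelin receptor of growing vessels, was at 45.7 and 111 TPM at E15 and at 0.549, 0.817 and 1.11 TPM in the cultures (-5.32, SE 0.33, adjusted p = 3.95e-16). Cd93 and Clec14a, C-type lectin receptors of endothelium, fell as well (-4.95 and -4.22). Slc38a5, an amino acid transporter, was at 14.4 and 26.8 TPM at E15 and at no more than 0.11 TPM in the cultures (-4.28, SE 0.13, adjusted p = 1.03e-26). Ctla2a, a cysteine protease inhibitor, fell by 4.81. These genes, Cldn5, Kdr and Cdh5 kept their calls without E15 replicate 2.

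Haemoglobin transcripts were also nearly lost. The 10 red blood cell markers summed to 884 and 1384 TPM at E15 and to between 7.05 and 9.75 TPM in the cultures. Of these, 5 passed the filter and fell, and the other 5, the embryonic globins Hbb-y, Hba-x and Hbb-bh1 among them, did not pass it. The adult beta globin Hbb-bt was at 118 and 238 TPM at E15 and at 0.2, 0.52 and 0.377 TPM in the cultures (-6.96, SE 0.18, adjusted p = 3.15e-28). Its neighbour Hbb-bs was at 204 and 250 TPM and then at 0.994, 0.518 and 1.5 TPM (-6.85, SE 0.28, adjusted p = 6.94e-22). The alpha globins Hba-a1 and Hba-a2 fell too (-6.99 and -4.73). Hba-a1 and Hba-a2, like Hbb-bs and Hbb-bt, are near-identical copies, and the division of reads within each pair is uncertain. Alas2, the erythroid enzyme of haem synthesis, is a single gene and was at 4.09 and 10.1 TPM at E15 and at 0.0482, 0.0313 and 0.0341 TPM in the cultures (-2.86, SE 0.14, adjusted p = 1.75e-19). Without E15 replicate 1 or 2 the difference was -3.42 or -2.29 for Alas2 and -7.46 or -6.45 for Hbb-bt. The E15 libraries were thus further apart than these SEs show. All 5 calls held without E15 replicate 2.

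Since the globin genes moved together, the 250 bases before their RefSeq start sites (GRCm38.p6) were searched on both strands for CACCC, the core of the box bound by the erythroid factor Klf1. The search was a description of letters and not of binding. All 5 tested members held it, as did 52% of the 32851 promoter windows of that length. The windows of a beta and an alpha globin are shown 5′ to 3′ with each match in capitals, a match to the reverse complement being read on the other strand. The first is chr7:103813924-103814173 on the minus strand, with 3 matches that begin 140, 104 and 89 bases before the start site. The second is chr11:32283422-32283671 on the plus strand, with 2 matches that begin 167 and 60 bases before it.
Hbb-bt: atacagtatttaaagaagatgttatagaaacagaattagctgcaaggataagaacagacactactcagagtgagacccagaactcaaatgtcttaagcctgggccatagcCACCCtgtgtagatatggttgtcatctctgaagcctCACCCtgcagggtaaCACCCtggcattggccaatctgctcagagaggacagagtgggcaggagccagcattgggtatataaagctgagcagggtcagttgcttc
Hba-a1: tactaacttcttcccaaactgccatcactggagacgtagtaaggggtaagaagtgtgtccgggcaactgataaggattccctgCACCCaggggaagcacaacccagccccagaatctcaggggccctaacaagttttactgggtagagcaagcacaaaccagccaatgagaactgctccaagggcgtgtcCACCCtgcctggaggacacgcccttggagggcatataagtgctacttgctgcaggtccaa

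Pericytes and smooth muscle, which wrap vessels, were split. Of 9 tested markers, 5 fell (55.6%, against 5.49% of all genes) and the median was -1.71. Without E15 replicate 2 the median was -0.73. Abcc9 and Anpep averaged under 1 TPM in the cultures and passed the filter only through E15, so this share is a description. Kcnj8, a potassium channel subunit of pericytes, was at 22.9 and 35.1 TPM at E15 and at 2.35, 1.9 and 2.49 TPM in the cultures (-3.18, SE 0.28, adjusted p = 1.51e-11), and its partner Abcc9 fell by 2.05. Those 2 calls held without E15 replicate 2, and those of Vtn, Rgs5 and Anpep did not (adjusted p = 0.245, 0.223 and 0.335). The contractile genes Acta2 and Tagln were not lower: Acta2, smooth muscle actin, was at 0.537 and 10.6 TPM at E15 and at 18.7, 3.16 and 26.4 TPM in the cultures, with overlapping groups (1.63, SE 0.76, adjusted p = 0.161). Without E15 replicate 2, Tagln was called higher (3.13, adjusted p = 0.0494).

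Among microglial markers, 1 of 11 tested fell (9.09%, against 5.49% of all genes). Csf1r, the receptor that microglia need to survive, was at 8.3 and 13.6 TPM at E15 and at 2.28, 1.65 and 1.81 TPM in the cultures (-2.01, SE 0.51, adjusted p = 0.00906; 0.237 without E15 replicate 2). The complement gene C1qa, another microglial marker, was at 28.6 and 41.3 TPM and at 30.3, 20 and 23.7 TPM, with overlapping groups. Microglial transcripts were thus still measured at DIV3, and the 13 markers summed to 110 and 146 TPM at E15 and to 106, 70.5 and 85.7 TPM in the cultures.

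Cajal-Retzius cells are the early neurons of the marginal zone that secrete reelin. Of 6 tested markers, 4 fell (66.7%, against 5.49% of all genes) and all 6 differences were negative, with a median of -1.48. Lhx1, Lhx5 and Trp73 averaged under 1 TPM in the cultures and passed the filter on low values only through E15. The count and the signs are thus a description. Lhx5, a LIM homeobox factor, was at 5.16 and 9.73 TPM at E15 and at 0.555, 1.52 and 0.8 TPM in the cultures (-2.08, SE 0.33, adjusted p = 2.53e-05). Trp73, the p53 relative that marks these cells, was at 1.87 and 2.54 TPM and then at 0.284, 0.528 and 0.363 TPM (-1.20, SE 0.18, adjusted p = 6.94e-06). Both held without E15 replicate 2, whereas Lhx1 and the chemokine receptor Cxcr4 lost their calls (adjusted p = 0.35 and 0.34). Reln itself was at 9.03 and 17.8 TPM at E15 and at 4.65, 6.51 and 5.83 TPM in the cultures and did not pass (adjusted p = 0.163).

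The markers that were high in E15 replicate 2 need a separate reading. Calls that fell made up 42.9% of the tested ventral and striatal markers and 44.4% of the meningeal markers, against 5.49% of all genes. All 6 tested choroid plexus markers, 3 of 7 tested ventral and striatal markers and 4 of 9 tested meningeal markers fell; without that library, 0 choroid plexus markers, 2 ventral markers and 1 meningeal marker did. Another meningeal marker, the fibrillar collagen gene Col1a1, was then called higher, and the median of the meningeal list was 0.05. The meningeal sums of the cultures, 275, 41.1 and 126 TPM, lay on both sides of the 79.3 TPM of E15 replicate 1. The remaining 2 ventral calls were Isl1, at 0.717 TPM in E15 replicate 1 and at most 0.0489 TPM in the cultures, and Foxp2, which is also a layer marker. With E15 replicate 1 alone, neither would have passed the filter on low values, so these 2 calls are a description. The meningeal marker that stayed lower was Igf2, an imprinted growth factor, which was at 50.1 and 338 TPM at E15 and at 1.67, 0.634 and 1.32 TPM in the cultures (-5.93, SE 0.41, adjusted p = 1.61e-14). Its difference was -7.29 without E15 replicate 1 and -4.56 without replicate 2, further apart than this SE shows. Ttr and the imprinted RNA H19 were among the 15 largest falls, but neither passed without E15 replicate 2 (adjusted p = 0.94 and 0.525).

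**Figure D2:**
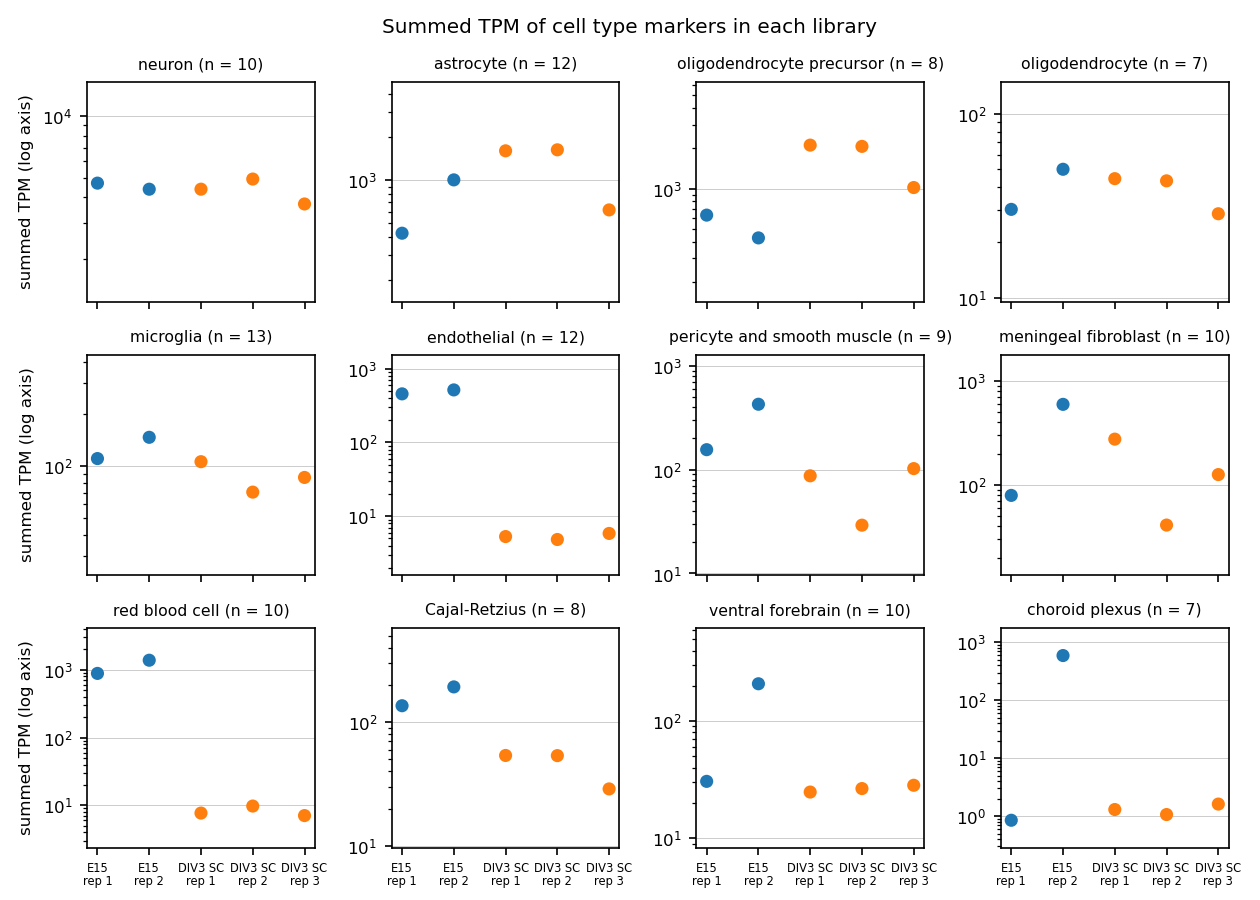
Summed TPM (log axis) of the markers of 12 cell types in each of the 2 E15 (blue) and 3 DIV3 SC (orange) libraries, with n the number of markers measured. Endothelial and red blood cell sums were at least 455 TPM in both E15 libraries and under 10 TPM in every culture, choroid plexus markers were high in E15 replicate 2 only, and neuronal sums lay between 3713 and 4917 TPM in all 5.

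Neuronal and macroglial markers showed no call in the limma fit, with an unadjusted p under 0.05 for 1 of 10 neuronal, 4 of 12 astrocyte and 2 of 8 oligodendrocyte precursor markers. For the neuronal markers, the median difference was -0.02, with sums of 4696 and 4385 TPM at E15 and of 4387, 4917 and 3713 TPM in the cultures. The 12 astrocyte markers had a median of 0.28. Gfap was at 7.05 and 14.1 TPM at E15 and so was lower than in every DIV3 SC library, but it did not pass (3.89, SE 1.64, adjusted p = 0.119; 0.0815 without DIV3 SC replicate 3). Of the 8 markers of oligodendrocyte precursors, 7 were higher on average (median 1.16) and 0 passed. Olig1, a transcription factor of this lineage, was at 303 and 128 TPM at E15 and at 1177, 1139 and 520 TPM in the cultures (2.16, SE 0.79, adjusted p = 0.0717; 0.0464 in a fit of the 5 libraries alone).

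Eomes and a few other genes of intermediate progenitors were lower in the cultures. Of 15 tested genes of this group, 3 fell and 0 rose (20%, against 5.49% of all genes that fell), with a median of -0.41. Eomes, the T-box factor that defines intermediate progenitors, was at 145 and 162 TPM at E15 and at 14.2, 13.1 and 19.2 TPM in the cultures (-3.25, SE 0.48, adjusted p = 6.13e-06). The groups did not overlap, and the call held without each of the 5 libraries in turn. In the 12 other DIV3 libraries Eomes lay between 11.5 and 25.8 TPM, and in SC cultures it lay between 1.9 and 7.98 TPM at DIV5 (4 libraries) and between 0.266 and 0.989 TPM at DIV10 (3 libraries). Neurog2, the proneural factor that precedes Eomes, was at 188 and 121 TPM at E15 and at 21.2, 25 and 60.9 TPM in the cultures (-2.21, SE 0.69, adjusted p = 0.0343). Neurod1, which follows Eomes, was at 182 and 239 TPM and then at 99.7, 117 and 75.5 TPM (-1.11, SE 0.36, adjusted p = 0.0406). Both calls were lost without E15 replicate 2 (adjusted p = 0.182 and 0.41). Insm1, which acts in many neurogenic divisions, had overlapping groups, at 539 and 254 TPM at E15 and at 367, 330 and 481 TPM in the cultures.

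Radial glial genes and the cell cycle gave few calls. Of 20 radial glial genes 1 fell (5%, against 5.49% of all genes), with a median of -0.43. Emx2, a patterning factor of cortical progenitors, was at 38.5 and 54.8 TPM at E15 and at 22.3, 22.9 and 18 TPM in the cultures (-1.10, SE 0.35, adjusted p = 0.0347; 0.424 without E15 replicate 2). Pax6, the factor that holds radial glial identity, was at 15 and 24.3 TPM and at 12.6, 8.38 and 6.31 TPM (adjusted p = 0.0571). Sox2, a factor shared by neural stem cells, was at 371 and 449 TPM and at 466, 374 and 279 TPM, which overlap. None of the 38 cell cycle genes passed in this limma fit (3 had an unadjusted p under 0.05), and their differences lay between -0.68 and 0.63 with a median of -0.19. Mki67, the proliferation antigen, was at 67.6 and 175 TPM at E15 and at 133, 110 and 140 TPM in the cultures (0.22, SE 1.01, adjusted p = 0.914). The cultures lay between the E15 libraries. Pcna, the sliding clamp of DNA replication, was at 263 and 309 TPM and at 203, 205 and 187 TPM (adjusted p = 0.137).

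Some transcription factors of deep cortical layers were lower in the cultures. Of 19 tested layer factors, 3 fell (15.8%, against 5.49% of all genes), with a median of -0.37. Foxp2, which averaged 0.186 TPM in the cultures, passed the filter on low values only through its E15 level. The count that includes it is thus a description. Tle4, a corepressor of layer 6 neurons, was at 16.9 and 13.1 TPM at E15 and at 1.82, 5.55 and 3.41 TPM in the cultures (-1.88, SE 0.58, adjusted p = 0.0315; 0.2 without E15 replicate 2). Sox5, which acts in subplate and deep layers, was at 3.86 and 2.87 TPM and then at 0.872, 1.59 and 1.66 TPM (-0.89, SE 0.22, adjusted p = 0.00713; 0.0328 without E15 replicate 2 and 0.0857 without E15 replicate 1). Foxp2, a forkhead factor of layer 6, fell from 1.1 and 2.97 TPM to 0.155, 0.251 and 0.154 TPM (-1.28, SE 0.15, adjusted p = 5.23e-08). Without E15 replicate 2 the difference was -0.83, and Foxp2 would not have passed the filter. Tbr1, Bcl11b and Fezf2, also deep layer factors, were lower without overlap between groups, as were 26.8% of all genes tested, but did not pass (adjusted p = 0.0975, 0.0918 and 0.277). In a limma fit of the 5 libraries alone, Tbr1 and Bcl11b passed (adjusted p = 0.0454 and 0.0218). Foxp2 and Sox5 lost their calls in that fit (adjusted p = 0.0558 and 0.0694). Tbr1, for example, was at 537 and 390 TPM at E15 and at 159, 264 and 211 TPM in the cultures. The upper layer factor Cux2 overlapped, at 22.2 and 9.71 TPM and at 25.4, 21.4 and 28.9 TPM. Of the 20 genes of immature cortical neurons, which include Dcx and Tubb3, 1 fell (5%, against 5.49% of all genes), with a median of -0.14. This was Nfia, a nuclear factor that also acts in glia. It was at 4.75 and 5.45 TPM at E15 and at 2.35, 2.36 and 1.77 TPM in the cultures (adjusted p = 0.0103). Its call was lost without E15 replicate 2, where the difference was -0.87.

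**Figure D3:**
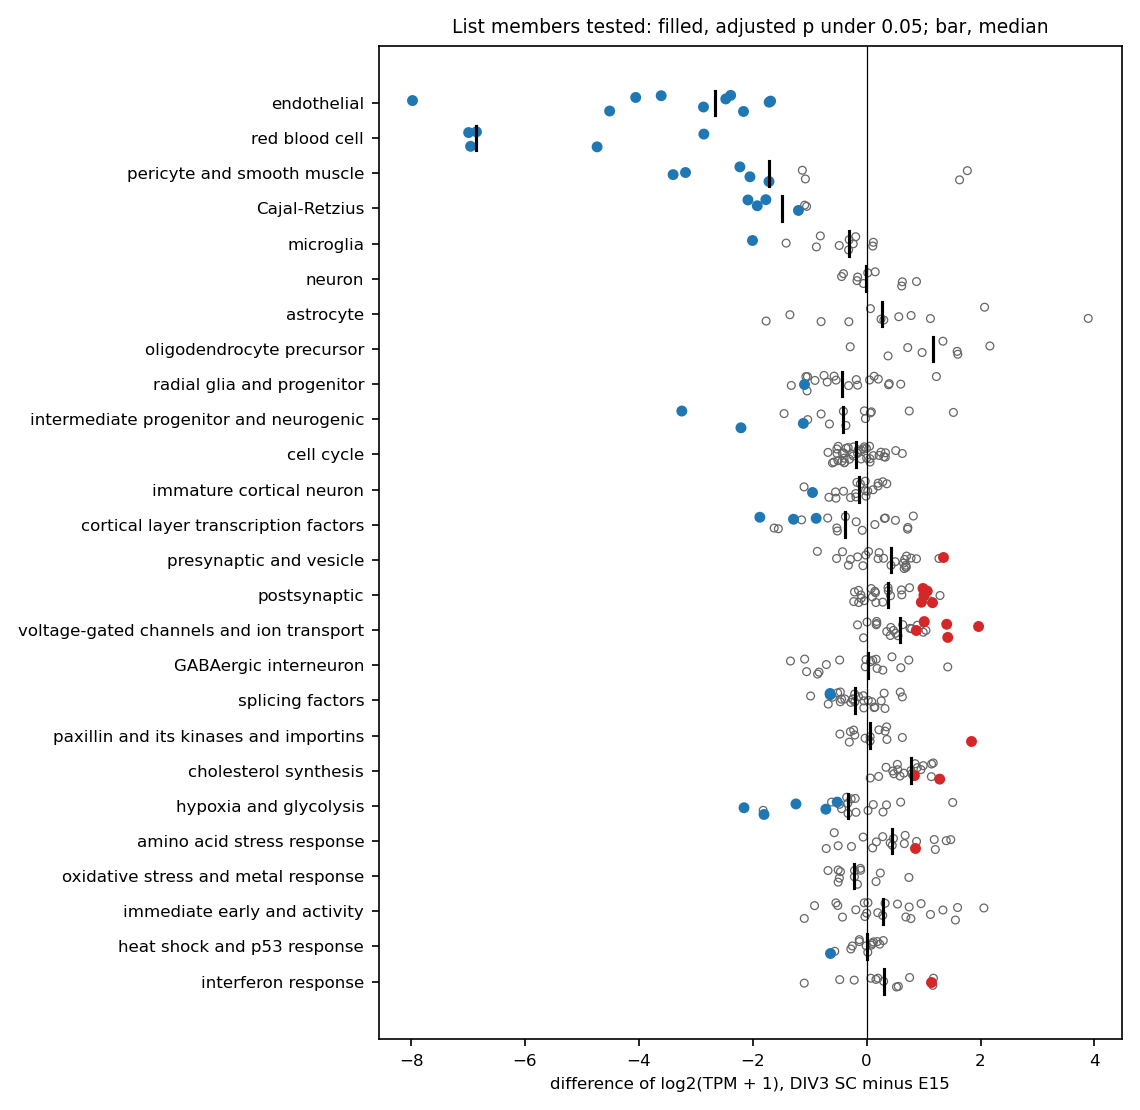
Difference of log2(TPM + 1), DIV3 SC minus E15, for each tested member of 26 gene lists (circles), with filled circles for adjusted p under 0.05 (blue, fell; red, rose) and a bar at each list's median. All tested endothelial and red blood cell members fell, whereas no cell cycle gene was called and all 20 cholesterol genes lay above 0.

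Some postsynaptic genes and some genes of membrane excitability were higher. In the postsynaptic group 5 of 27 genes rose (18.5%, median 0.38), and among channels and ion transporters 5 of 24 did (20.8%, median 0.59), against 5.31% of all genes. In the presynaptic group 1 of 25 rose (4%, median 0.43), a share below that of all genes. None of these 3 lists had a gene that fell. Unc13a, which primes synaptic vesicles, was at 81.7 and 93.7 TPM at E15 and at 187, 195 and 300 TPM in the cultures (1.33, SE 0.33, adjusted p = 0.00738). Total Snap25, a vesicle fusion protein, was at 28.7 and 37.2 TPM and at 26.4, 33.9 and 27.8 TPM, with overlapping groups (-0.16, SE 0.27, adjusted p = 0.749). Of the postsynaptic genes, Nlgn2, an adhesion molecule of inhibitory synapses, was at 360 and 267 TPM at E15 and at 574, 535 and 791 TPM in the cultures (1.01, SE 0.28, adjusted p = 0.0173), and the groups did not overlap. Camk2b, a calcium-dependent kinase, and the scaffolds Shank2 and Shank3 rose by 0.99, 1.16 and 1.06.

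The largest rise among channels and ion transporters was that of Atp1b1, the beta subunit of the sodium pump. It was at 141 and 162 TPM at E15 and at 638, 516 and 630 TPM in the cultures (1.97, SE 0.52, adjusted p = 0.0124). The groups did not overlap. Cacna1a, the P/Q-type calcium channel, was at 3.45 and 3.7 TPM at E15 and at 11.2, 10.6 and 11.6 TPM in the cultures (1.41, SE 0.42, adjusted p = 0.0272). The potassium channel Kcna2 rose by 0.87. Without E15 replicate 2, the 11 rises of these 3 lists were reduced to 1, that of Kcna2 (1.17, adjusted p = 0.0457), although the medians were then 0.44, 0.68 and 0.81; without DIV3 SC replicate 3, 2 passed, Atp1b1 among them (adjusted p = 0.0449). None of the 18 genes of GABAergic interneurons was called by limma (median 0.03; unadjusted p under 0.05 for 1).

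Pxn encodes paxillin, the focal adhesion protein whose knockdown the study examined; the SC cultures are the control of that experiment. Pxn was at 9.2 and 8 TPM at E15 and at 9.16, 9.65 and 11.7 TPM in the cultures (0.22, SE 0.25, adjusted p = 0.614). The groups overlapped, and a 2-sided exact permutation test gave p = 0.3, where 2 against 3 libraries cannot go below 0.1. The list around paxillin held kinases, Cdk5 activators, importins, Bdnf and the adhesion genes Vcl and Tln1. Of its 14 genes, 1 rose (7.14%, against 5.31% of all genes, median 0.06). Cdk5r2, which encodes the p39 activator of the neuronal kinase Cdk5, was at 405 and 256 TPM at E15 and at 1465, 1121 and 923 TPM in the cultures (1.83, SE 0.46, adjusted p = 0.0081; 0.241 without E15 replicate 2). The other activator, Cdk5r1 (p35), was at 2067 and 1293 TPM and at 1652, 1536 and 1626 TPM, which overlap, and Cdk5 itself was at 41.1 and 35.5 TPM and at 49.7, 48.8 and 48.5 TPM (adjusted p = 0.205).

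Of 28 splicing factors, 2 fell (median -0.21), a share of 7.14% that is near the 5.49% of all genes. Hnrnpa1, a repressor of exon inclusion, was at 3039 and 4239 TPM at E15 and at 2207, 2289 and 2410 TPM in the cultures (-0.64, SE 0.19, adjusted p = 0.0242). Hnrnpk, another heterogeneous nuclear ribonucleoprotein, was at 920 and 1207 TPM and at 670, 721 and 639 TPM (-0.64, SE 0.19, adjusted p = 0.0245). Neither passed without E15 replicate 2 (adjusted p = 0.488 and 0.436) or without DIV3 SC replicate 3 (adjusted p = 0.0513 and 0.0893). Ptbp1, which represses neuronal exons in progenitors, was at 133 and 149 TPM and at 122, 118 and 125 TPM (-0.21, SE 0.25) and did not pass.

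Of the hypoxia and glycolysis genes, 5 of 21 tested fell and 0 rose (23.8%, against 5.49% of all genes that fell), with a median of -0.33. Ankrd37, a target of the hypoxia-inducible factor (HIF), was at 9.42 and 13 TPM at E15 and at 1.83, 2.21 and 1.2 TPM in the cultures (-2.15, SE 0.37, adjusted p = 7.61e-05; 0.0159 without E15 replicate 2). Slc2a1, the glucose transporter GLUT1, which is abundant in brain endothelium as well as being a HIF target, was at 30.2 and 29.7 TPM and then at 7.84, 6.39 and 9.74 TPM (-1.80, SE 0.41, adjusted p = 0.00299; 0.0667 without E15 replicate 2). Egln3, a HIF prolyl hydroxylase, was at 11.6 and 9.55 TPM and then at 3.94, 5.75 and 2.49 TPM (-1.24, SE 0.36, adjusted p = 0.0209; 0.147 without E15 replicate 2). The glycolytic enzymes Tpi1 and Gapdh also fell (-0.72 and -0.52; adjusted p = 0.133 and 0.291 without E15 replicate 2), and Gapdh was at 2529 and 2675 TPM at E15 and at 1879, 1922 and 1664 TPM in the cultures. Vegfa, a growth factor that HIF induces, was at 92.4 and 61.8 TPM and at 55.9, 67.1 and 239 TPM, with its highest value in DIV3 SC replicate 3 (adjusted p = 0.778). The part that the loss of endothelial transcripts plays in the fall of Slc2a1 was not tested.

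The same search for ACGTG, the core of the HIF response element, found it before the start site of 13 of the 19 tested members with a window, against 18.5% of 27025 genes with any window. It was held by 3 of the 5 genes that fell and by 10 of the 14 that did not pass, so the letters do not separate those groups. The windows of the 3 genes are shown in the same way. The window of Ankrd37 is chr8:45999851-46000100 on the minus strand, with matches that begin 241 and 6 bases before its start site. This window lies within the span of the gene (chr8:45996908-46000414). That of Slc2a1 is chr4:119108495-119108744 on the plus strand, with a match 36 bases before the start site. That of Egln3 is chr12:54203875-54204124 on the minus strand, with a match 229 bases before the start site.
Ankrd37: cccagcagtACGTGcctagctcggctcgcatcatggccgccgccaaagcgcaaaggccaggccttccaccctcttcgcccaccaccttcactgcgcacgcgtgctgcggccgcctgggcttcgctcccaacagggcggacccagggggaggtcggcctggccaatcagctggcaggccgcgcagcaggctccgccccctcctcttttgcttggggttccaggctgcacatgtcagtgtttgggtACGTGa
Slc2a1: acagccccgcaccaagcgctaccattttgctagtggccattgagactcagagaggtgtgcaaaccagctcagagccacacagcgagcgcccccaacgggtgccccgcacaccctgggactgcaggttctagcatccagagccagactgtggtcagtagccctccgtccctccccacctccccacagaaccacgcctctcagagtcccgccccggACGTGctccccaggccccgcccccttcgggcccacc
Egln3: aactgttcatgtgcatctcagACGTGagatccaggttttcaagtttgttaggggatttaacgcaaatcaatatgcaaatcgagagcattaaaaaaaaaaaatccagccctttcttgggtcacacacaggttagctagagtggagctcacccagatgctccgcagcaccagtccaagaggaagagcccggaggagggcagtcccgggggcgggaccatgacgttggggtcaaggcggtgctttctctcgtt

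Genes of cholesterol synthesis lay above E15 throughout. Of 20 tested genes, 2 rose (10%, against 5.31% of all genes) and all 20 differences were positive, with a median of 0.79, whereas 47.9% of all genes tested had a positive difference. Dhcr7, the final reductase of the pathway, was at 39.2 and 26.7 TPM at E15 and at 75.5, 72.7 and 94 TPM in the cultures (1.28, SE 0.34, adjusted p = 0.0133). Srebf2, the factor that drives the pathway, was at 101 and 74.9 TPM and then at 142, 142 and 188 TPM (0.84, SE 0.27, adjusted p = 0.0402). Summed over the list, E15 libraries held 2658 and 2546 TPM and the cultures 3837, 4119 and 5123 TPM. Without E15 replicate 2, 0 genes passed and the median was 0.63.

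Stress and activity genes showed few calls. In the amino acid stress, heat shock and p53, and interferon lists, 5.26%, 7.14% and 7.69% of tested genes were called, against 10.8% of all genes. In the amino acid stress list, 1 of 19 rose (median 0.45): Vldlr, a reelin receptor that is also induced by this response, was at 50.4 and 50.3 TPM at E15 and at 92.8, 86.2 and 96.7 TPM in the cultures (0.85, SE 0.26, adjusted p = 0.0276; 0.239 without E15 replicate 2). In 1 library, DIV3 SC replicate 3, members of this list were high, with Chac1, a glutathione-degrading enzyme, at 11.9, 11 and 55 TPM in replicates 1, 2 and 3 and at 6.99 and 9.17 TPM at E15. Without that library the list's median was 0.01. None of the 23 immediate early genes was called by limma (median 0.28; unadjusted p under 0.05 for 4), and Fos was at 1.05 and 4.38 TPM at E15 and at 6.03, 7.16 and 45.2 TPM in the cultures. The oxidative and metal response list had 0 limma calls among 13 genes (median -0.21; unadjusted p under 0.05 for 0). In the heat shock and p53 list 1 of 14 fell (median 0.01), Sesn1, a p53 target (-0.65; adjusted p = 0.211 without E15 replicate 2). In the interferon list 1 of 13 rose (median 0.30), and this was Stat2, a signal transducer of interferon, at 26.6 and 24 TPM at E15 and at 50.1, 46.7 and 76.3 TPM in the cultures (1.13, SE 0.26, adjusted p = 0.00346; 0.108 without E15 replicate 2). The interferon list summed to 131 and 118 TPM at E15 and to 363, 173 and 137 TPM in DIV3 SC replicates 1, 2 and 3. Without DIV3 SC replicate 3 its median was 0.91. Oligodendrocyte markers gave 0 limma calls among 5 tested (median -0.01; unadjusted p under 0.05 for 0).

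Among the 15 largest rises with non-overlapping groups, Col10a1, a short-chain collagen, had the largest difference. It was at 0.115 and 0.0278 TPM at E15 and at 62.9, 16.1 and 7.84 TPM in the cultures (4.31, SE 0.86, adjusted p = 0.000791). Shh, the morphogen Sonic hedgehog, was at 0.638 and 2.58 TPM and then at 20.1, 13.4 and 29 TPM (3.11, SE 0.67, adjusted p = 0.00194). Its range in the 12 other DIV3 libraries was 3.96 to 38.6 TPM. Fst, the activin antagonist follistatin, was at 23.7 and 10.4 TPM at E15 and at 126, 157 and 130 TPM in the cultures (3.04, SE 0.79, adjusted p = 0.0105). Bmp3, a member of the bone morphogenetic protein family, and Frzb, a secreted Wnt antagonist, rose by 2.59 and 2.53. Bmp3 was at 7.59 and 5.88 TPM at E15, and the 12 other DIV3 libraries, at 5.33 to 68.1 TPM (median 14.5 TPM), overlapped these values. The calls of Fst, Bmp3 and Frzb were lost without E15 replicate 2 (adjusted p = 0.266, 0.108 and 0.0713).

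Mafa, a basic leucine zipper factor, was at 1.16 and 2.74 TPM at E15 and at 47.7, 30 and 9.27 TPM in the cultures (3.13, SE 0.69, adjusted p = 0.00242), and the median of the 12 other DIV3 libraries was 2.99 TPM. Kcnk9, the background potassium channel TASK-3, was at 8.63 and 7.12 TPM and then at 57.8, 67.3 and 111 TPM (3.12, SE 0.59, adjusted p = 0.000424). Hr, a corepressor whose gene is a target of thyroid hormone receptor in brain, was at 17.3 and 14.9 TPM and then at 130, 103 and 105 TPM (2.73, SE 0.46, adjusted p = 6.6e-05). In SC cultures Hr lay between 115 and 263 TPM at DIV5 and between 68.1 and 188 TPM at DIV10. Shfl, an interferon-stimulated inhibitor of ribosomal frameshifting, was at 7.84 and 9.52 TPM and then at 67.2, 56.5 and 55 TPM (2.65, SE 0.34, adjusted p = 3.08e-07). The long noncoding RNA Lncppara rose by 2.37. The noncoding Gm38795 (chr6:41621774-41625962) rose by 3.51 and lies within the span of Trpv6 (chr6:41620619-41636405), a calcium channel gene that rose by 2.40; whether counting used strand is not stated, so their reads cannot be told apart. Gm5415, Gm9839 and the replication-dependent histone gene H4c8, a member of a multigene family, rose by 3.03, 2.96 and 2.73. Of the 15 rises, 7 passed without E15 replicate 2 (Col10a1, Mafa, Kcnk9, Shh, Hr, Shfl and Lncppara), and 13 of the 15 largest falls did.

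The most abundant transcripts were largely shared. Of 11 genes that were among the 10 most abundant in either group, 10 did not pass, among them Tuba1a, the tubulin of young neurons, at 27166 and 25679 TPM at E15 and at 30547, 30748 and 28199 TPM in the cultures (adjusted p = 0.815), and Eef1a1, an elongation factor, at 29746 and 29999 TPM and at 21165, 22771 and 20290 TPM (adjusted p = 0.262). The exception was mt-Rnr2, the large ribosomal RNA of mitochondria, at 2009 and 2042 TPM at E15 and at 7942, 5641 and 4817 TPM in the cultures (1.57, SE 0.28, adjusted p = 0.000192). All mitochondrially encoded transcripts summed to 3777 and 4927 TPM at E15 and to 16533, 11166 and 8501 TPM in the cultures.

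**Figure D4:**
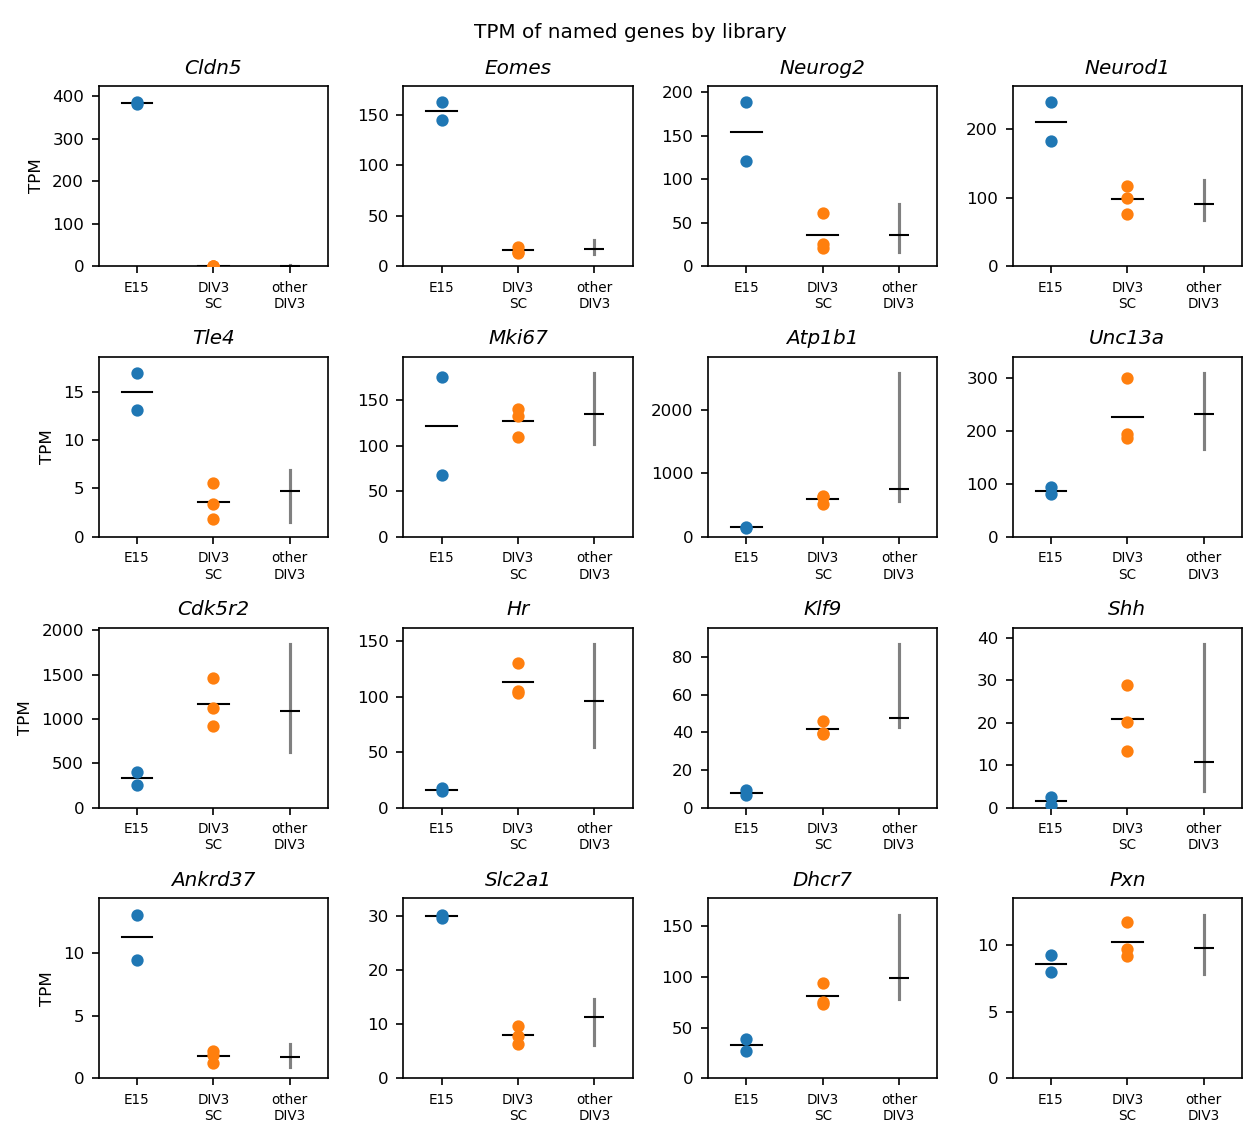
TPM of 16 named genes in the 2 E15 (blue) and 3 DIV3 SC (orange) libraries, with horizontal lines at the group means, and the range and median of the 12 other DIV3 libraries (grey bar and black tick). Eomes was 145 and 162 TPM at E15 and at most 25.8 TPM in any DIV3 library, Hr was at least 54.7 TPM in every DIV3 library against at most 17.3 TPM at E15, and Mki67 and Pxn overlapped.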

How the data were processed

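RNA of 48 libraries was measured by paired-end short-read sequencing. According to the labels and the study, the authors aligned reads to GRCm38 with STAR 2.7.10, estimated abundance with RSEM 1.3.3 and deposited TPM per gene and library without pooling. The table holds 39756 genes, and each library sums to 1000000, so a rise of some transcripts lowers the share of others. Counting error and strand use are not given in the sources used here. The long-read counts of the series were not used here.

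Groups were taken from the labels. With no gene-level design stated by the study, log2(TPM + 1) was fitted with limma 3.58.1 (R 4.3.3), 1 coefficient for each of 13 groups over 48 libraries, eBayes with a trend, over the 13899 genes whose E15 and DIV3 SC means averaged at least 1 TPM. The study counts the sequenced samples of a group as independent cultures. Whether these came from separate litters is not given in the sources used here. The p-values measure the spread between libraries pooled over the 13 groups, and not that of the 2 E15 libraries alone. Replicate numbers 1 and 2 occur in both groups. The fitting script was tested on simulated data.

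Genes named are Pxn, members of the lists, the 15 largest rises and falls whose groups do not overlap, and genes among the 10 most abundant of either group. The members and lists were chosen with earlier results of these data known. Alternatives covered the pseudocount, filter, scaling, libraries in the fit, replicate block, array weights and each library left out. Gene positions and promoter sequences are from RefSeq for GRCm38.p6; some genes have several windows. A few list members count in the totals but are not reported here by name.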

Additional observations from a re-analysis of the deposited data

Results flagged for a closer look

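Among 8 genes whose DIV5 SC levels were examined for a library far from the rest, 1 stood out. Cldn5, the endothelial tight junction gene, was at 3.95 TPM in the highest of the 4 DIV5 SC libraries, and the other 3 lay between 0.203 and 0.714 TPM. Chance gives such a gap in about 1 in 20 groups.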

How the results depend on the processing

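The count of 1501 genes stayed within 1.5 times under a pseudocount of 0.1 (1427), a filter over all 48 libraries (1156), median ratio size factors (1621), a fit of the 5 libraries (1350) and array weights (2144). Lower genes were 496 with the filter over 48 libraries and 465 in the fit of the 5 libraries, against 763. With no filter, 2675 genes passed, 1943 of them lower. Leaving out 1 library gave 244 to 1391 genes, 83 to 559 higher, 161 to 871 lower and 214 to 909 with an absolute difference of at least 1, the fewest each time without E15 replicate 2. With consecutive library numbers only (E15 replicate 1, DIV3 SC replicates 1 and 2), 148 genes passed, 23 higher and 125 lower, 140 with a difference of at least 1. These 2 settings leave E15 with 1 library. With the replicate number as a block, 3654 genes passed over 48 libraries, 1707 higher and 1947 lower, and 712 over the 5 libraries, 207 lower; same-numbered libraries shared only a number, and their deviations correlated with r = -0.08 and -0.10. No call among the 1501 changed sign where it was called again. Of the named genes among the 1501, Xist alone changed sign, from 4.17 to -0.78 without E15 replicate 1, and it was 9.12 without E15 replicate 2; the uncalled Sox2, Insm1, Mki67, Snap25 and Cdk5r1 changed sign in at least 1 alternative. Genes followed one by one that did not pass gained a call in the fit of the 5 libraries (6, with Tbr1, Bcl11b and Olig1 among them), with array weights (4, with Gfap and Olig1 among them) and with the replicate block over 48 libraries (11, with Tbr1, Bcl11b and Fezf2 at adjusted p = 0.00179, 0.0063 and 0.023, and Gfap and Olig1 at 0.00314 and 0.00491). Of the same genes, calls of 48 were lost without E15 replicate 2, 26 without DIV3 SC replicate 3, 16 without E15 replicate 1, 15 without DIV3 SC replicate 1 and 10 without DIV3 SC replicate 2. In the fit of the 5 libraries, 18 of these genes lost their call. Among them were Foxp2, Sox5, Isl1, Lhx1, Hnrnpa1, Hnrnpk, Tpi1 and Gapdh. Calls were also lost with array weights (4) and with the replicate block over the 5 libraries (24). The cause of these shifts was not tested. Without counts, depth limits the values near 0 by an unknown amount.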

Other observations

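Some genes outside the lists and the 15 largest changes, chosen after their values were seen, add to the comparison. Klf9, a Kruppel-like factor whose gene responds to thyroid hormone as Hr does, was at 9.32 and 6.59 TPM at E15 and at 39.5, 39.2 and 45.9 TPM in the DIV3 SC cultures (2.26, SE 0.39, limma adjusted p = 0.0001). It lay between 60.4 and 83 TPM at DIV5 and between 76.8 and 163 TPM at DIV10 in SC cultures. Txnip, a glucose-responsive inhibitor of thioredoxin, was at 292 and 353 TPM at E15 and at 53.7, 30.7 and 13 TPM at DIV3 (-3.47, SE 0.93, adjusted p = 0.0133; 0.191 without E15 replicate 2). Its DIV3 levels were lower than the 61.7 to 220 TPM of the DIV5 and the 82.2 to 451 TPM of the DIV10 SC cultures. Mmp9, a matrix metalloproteinase, was at 14.4 and 14.8 TPM at E15 and at 0.936, 0.593 and 0.595 TPM at DIV3 (-3.20, SE 0.34, adjusted p = 3.24e-09; 2.24e-06 without E15 replicate 2).

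Bcan, the brain proteoglycan brevican, was at 39.1 and 37.2 TPM at E15 and at 207, 195 and 123 TPM at DIV3 (2.13, SE 0.55, adjusted p = 0.0102). Sema7a, a membrane-anchored semaphorin, was at 107 and 60.2 TPM and then at 295, 252 and 598 TPM (2.13, SE 0.52, adjusted p = 0.00604). Ephb6, an Eph receptor without kinase activity, lies at chr6:41603834-41620509 beside Trpv6 and Gm38795, and whether its rise is separate from theirs was not tested. It was at 85.7 and 56.7 TPM and then at 335, 288 and 412 TPM (2.28, SE 0.45, adjusted p = 0.000753). These 3 calls were lost without E15 replicate 2 (adjusted p = 0.154, 0.229 and 0.0702). Dlk1, an imprinted Notch ligand, was at 8.68 and 20.3 TPM at E15 and at 1.67, 0.648 and 0.657 TPM at DIV3 (-2.89, SE 0.49, adjusted p = 7.68e-05). Without E15 replicate 2 the difference was -2.32. The 12 other DIV3 libraries lay between 0.426 and 7.49 TPM, with a median of 4.97 TPM, which is above each DIV3 SC library.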
